A study of Homo sapiens with 6 samples.

Results

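The genes described here are the cancer-testis antigen families, taken as every protein-coding gene whose name starts with MAGE, GAGE, XAGE, PAGE, SPANX, SSX, CT45A or CTAG. This rule found 96 of the 58395 genes in the table. RNA had been sequenced from 786-O, a human cell line from a clear cell renal cell carcinoma that lacks functional VHL. The 3 sgPLOD2 libraries came from 786-O cells edited with CRISPR/Cas9 and a guide against PLOD2, and the 3 sgControl libraries from 786-O cells with a control guide. PLOD2 encodes lysyl hydroxylase 2, which modifies lysines of collagen before cross-linking. The labels give the same growth conditions for all cells and do not say whether either line was a clone or a pool. Nor do they say that the libraries of a group were grown apart, so every p-value rests on a spread between libraries that may be technical.

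Cancer-testis genes are normally transcribed in male germ cells and are silent in most other adult tissues. Many of their promoters are kept off by DNA methylation, and tumours that lose this methylation can make the antigens, which T cells may recognise. The largest families lie on chromosome X as recently duplicated, nearly identical copies. MAGE proteins bind RING-type ubiquitin ligases through a shared MAGE homology domain. The MAGE-A, MAGE-B and MAGE-C genes (type I) are restricted to the germline, whereas MAGE-D, MAGE-E, MAGE-F, MAGE-H and MAGE-L genes (type II) are active in many tissues. GAGE, XAGE and PAGE genes encode small acidic proteins, SPANX genes encode nuclear proteins of spermatids and sperm, and SSX genes encode transcriptional repressors.

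The prefixes also caught genes that are not germline-restricted antigens. Of the 96 members, 80 belonged to the CT45A, CTAG, GAGE, type I MAGE, PAGE, SPANX, SSX and XAGE families, and all 80 lay on chromosome X. These 80 are called the classical families here. The other 16 were 9 type II MAGE genes, 6 CTAGE genes, which are intronless relatives of MIA2, and SSX2IP, a centrosome protein named for binding SSX2. Of these 16, 7 lay on chromosome X.

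Promoters are shown for a few members that the results turn on: a pair of SPANX copies with very different levels, the most abundant type I MAGE gene, and genes of the pairs or families that were listed at 0 in sgControl libraries. They were taken from RefSeq on GRCh38.p14, as 250 bases before to 50 bases after the annotated start, and 80 of the 96 members had an entry. SPANXA1 (chrX:141584689-141584988, minus strand) and SPANXC (chrX:141242468-141242767, minus strand) are printed 5′ to 3′ with capitals at the bases that differ. MAGEA3 (chrX:152698544-152698843, plus strand) has its CG dinucleotides in capitals, since CG is where DNA methylation occurs. GAGE2A (chrX:49589246-49589545, plus strand), XAGE1A (chrX:52495558-52495857, plus strand) and MAGED4 (chrX:52184638-52184937, plus strand) have in capitals each GCGCATGC on either strand, the core of the recognition sequence of NRF1, a factor whose binding methylation is known to block. These are the sequences.
SPANXA1: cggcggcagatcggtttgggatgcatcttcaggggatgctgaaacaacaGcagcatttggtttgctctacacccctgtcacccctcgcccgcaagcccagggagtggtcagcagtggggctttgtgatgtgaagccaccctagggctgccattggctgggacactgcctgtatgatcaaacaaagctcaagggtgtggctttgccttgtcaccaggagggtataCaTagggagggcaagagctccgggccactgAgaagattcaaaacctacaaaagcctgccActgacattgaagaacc
SPANXC: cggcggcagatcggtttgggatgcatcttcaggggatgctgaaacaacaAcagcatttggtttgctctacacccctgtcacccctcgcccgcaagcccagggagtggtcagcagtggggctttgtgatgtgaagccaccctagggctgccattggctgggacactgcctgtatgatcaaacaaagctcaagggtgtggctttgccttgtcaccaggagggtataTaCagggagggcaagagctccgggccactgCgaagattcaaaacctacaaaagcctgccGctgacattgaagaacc
MAGEA3: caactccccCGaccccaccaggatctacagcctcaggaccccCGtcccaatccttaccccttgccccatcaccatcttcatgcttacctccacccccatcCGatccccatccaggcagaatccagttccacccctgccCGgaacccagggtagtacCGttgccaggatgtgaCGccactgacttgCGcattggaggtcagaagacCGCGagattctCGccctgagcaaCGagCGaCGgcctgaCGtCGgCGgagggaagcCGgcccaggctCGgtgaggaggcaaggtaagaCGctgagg
GAGE2A: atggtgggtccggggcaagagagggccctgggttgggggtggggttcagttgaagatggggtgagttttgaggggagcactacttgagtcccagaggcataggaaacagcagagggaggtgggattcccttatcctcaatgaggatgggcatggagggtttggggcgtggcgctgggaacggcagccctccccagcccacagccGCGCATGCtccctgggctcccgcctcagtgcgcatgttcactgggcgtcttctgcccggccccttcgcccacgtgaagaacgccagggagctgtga
XAGE1A: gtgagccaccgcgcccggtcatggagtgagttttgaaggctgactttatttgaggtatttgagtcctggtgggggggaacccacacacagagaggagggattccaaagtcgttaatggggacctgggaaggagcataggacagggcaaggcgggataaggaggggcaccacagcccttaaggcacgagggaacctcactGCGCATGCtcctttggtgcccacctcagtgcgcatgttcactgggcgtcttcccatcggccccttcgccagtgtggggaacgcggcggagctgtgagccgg
MAGED4: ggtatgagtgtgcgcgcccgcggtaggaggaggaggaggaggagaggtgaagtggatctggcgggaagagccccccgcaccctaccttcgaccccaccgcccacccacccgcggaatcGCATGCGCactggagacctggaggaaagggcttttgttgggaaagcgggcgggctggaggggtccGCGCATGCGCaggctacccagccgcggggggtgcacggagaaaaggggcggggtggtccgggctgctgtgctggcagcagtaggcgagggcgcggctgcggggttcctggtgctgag

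The SPANXA1 and SPANXA2 promoters were identical. The SPANXC promoter was 98.3% identical to them and differed by G50A, C225T, T227C, A255C and A284G, with SPANXA1 given first and positions counted from 1 at the 5′ end of the window. MAGEA3 and MAGEA6 had identical promoters, and so, at 1 of their listed starts, did XAGE1A and XAGE1B, and GAGE2A and GAGE1. Other copies differed more, with 84.0% promoter identity between MAGED4 and MAGED4B, whose coding sequences are identical. GCGCATGC, counted on both strands with overlapping matches, was in 3.05% of 35116 promoters of the same length. It was chosen after the printed sequences had been read, so its counts in the families of those sequences are a description and test nothing. Among members with an entry, of which 16 have more than 1 listed start, it stood at any start of 11 of 12 GAGE, 3 of 5 XAGE, 3 of 6 PAGE and 1 of 7 SSX genes, and of 3 of 8 type II MAGE genes. The GAGE genes are not separate cases. GAGE1, GAGE2A, GAGE12C, GAGE12D, GAGE12E, GAGE12F, GAGE12H and GAGE12J had identical promoters at a listed start. Of these, GAGE12D, GAGE12E, GAGE12F, GAGE12H and GAGE12J were listed at 0 in all libraries. None of the 23 type I MAGE genes or the 9 SPANX genes held GCGCATGC. GGAA, the core of the Ets recognition sequence, was at a start of 23 of 23 type I MAGE and 5 of 9 SPANX genes, against 95.5% of all promoters. With the start of lowest coordinate taken for each gene, the 65 classical promoters held a median of 10 CG dinucleotides, against 14 over all promoters. A match is a description of letters and does not show that a factor binds.

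Values are in FPKM, which counts fragments by gene length and by the size of the library. PLOD2 itself (chr3:146069440-146163653 on GRCh38) had 5.98, 10.1 and 6.64 FPKM in sgPLOD2 libraries and 26.8, 25.7 and 21.5 FPKM in sgControl libraries. The groups did not overlap, and the log2 fold change was -1.61 ± 0.18 (SE, limma adjusted p = 0.000509). Between 9874 and 10649 genes reached 1 FPKM in a library, and FPKM summed to 229485 to 268612. Whole reads could not be recovered from FPKM, so the depth is unknown and intervals for counting error cannot be given. None of 15 housekeeping genes was listed at 0. Of 12 renal carcinoma markers, 10 averaged at least 1 FPKM in each group, while NAT8 was listed at 0 in all libraries. CA9 had 0.317, 0.368 and 0.285 FPKM in sgPLOD2 libraries and was listed at 0 in each sgControl library. CA12, CD70, ANGPTL4, PAX2 and VIM were lower in every sgPLOD2 library than in any sgControl library, and CDH6 and LOX were higher.

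Most members were listed at 0 or stayed under 0.1 FPKM in both groups. A listed 0 does not show that a copy was silent where reads are shared. Every 100-base stretch of the GAGE12D transcript, for example, also occurs in GAGE12C. Of the 96, 50 were listed at 0 in all 6 libraries and another 12 stayed under 0.1 FPKM. That left 34 that reached 0.1 FPKM in at least 1 library, of which 21 belonged to the classical families. All 3 CTAG genes, which include the gene of NY-ESO-1, were listed at 0 throughout. So were 14 of 26 type I MAGE genes, 8 of 13 GAGE, 7 of 8 SSX, 6 of 9 CT45A, 4 of 6 PAGE, 3 of 10 SPANX and 3 of 5 XAGE genes. MAGEL2 and MAGEE2 were the type II genes listed at 0.

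Summed over the 80 classical genes, FPKM was 174, 143 and 136 in sgPLOD2 libraries and 3.30, 3.33 and 3.22 in sgControl libraries. The sum was thus far higher in every sgPLOD2 library, but a pair of genes made up most of it. SPANXA1 and SPANXA2 together held 72.4 to 73.5% of the sum in sgPLOD2 libraries and 16.1 to 34.5% in sgControl libraries. In bulk RNA, more cells that transcribe a gene and more RNA per cell cannot be told apart.

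Of the 34 members that reached 0.1 FPKM, 17 were higher in every sgPLOD2 library than in any sgControl library, 9 were lower in every one and 8 overlapped. Over the 19152 genes of the table that reached this level, 30.0% were higher without overlap and 22.1% were lower. Among the 21 classical members the counts were 14 higher, 2 lower and 5 overlapping, and among the 13 others they were 3 higher, 7 lower and 3 overlapping. A member near 0 in sgControl could reach this level only through sgPLOD2, so these counts describe the members and test nothing. Above 0 in sgPLOD2 libraries alone were 16 of the 46 members above 0 anywhere, and above 0 in sgControl libraries alone were 3, against 11.5% and 7.92% of 28706 genes.

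The fit compared the 10469 genes that averaged at least 1 FPKM over the libraries, on log2(FPKM + 1), a scale that understates the change of weakly expressed genes. Of these, limma with Benjamini-Hochberg adjustment at 0.05 called 29.5% higher and 23.5% lower in sgPLOD2. Of the 96 members, 13 passed the minimum, and 9 were called higher and 4 lower. The 8 classical members among the 13 were all called higher, and all but SPANXB1 averaged under 1 FPKM in sgControl. A member under 1 FPKM in sgControl could pass the minimum only through sgPLOD2, so these counts describe the members and test nothing. The 8 also include SPANXA1 with SPANXA2 and XAGE1A with XAGE1B, which are not separate measurements. After rescaling to equal totals, 3742 genes were called higher and 1827 lower, against 3084 higher and 2456 lower as deposited. With every gene above 0 in a library tested, 16 of 46 members were higher and 5 lower, against 14.2% and 10.1% of 28706 genes. With a minimum mean of 0.1 FPKM, 16 of 25 members were higher and 6 lower, against 26.6% and 19.0% of 16278 genes. In the authors' deposited table, 17 of the 37 members with an adjusted p were higher at 0.05 and 8 were lower, against 18.5% and 17.0% of 22870 genes.

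SPANXA2 (chrX:141589708-141590762) and SPANXA1 (chrX:141583674-141585011) had the highest levels of the classical families. SPANXA2 had 64.4, 52.4 and 48.9 FPKM in sgPLOD2 libraries and 0.362, 0.478 and 0.227 FPKM in sgControl libraries. Every sgPLOD2 library was above every sgControl library, with a ratio of means of 155. The log2 fold change was 5.37 ± 0.13 (SE, limma adjusted p = 9.93e-07). SPANXA1 had 63.5, 52.5 and 49.3 FPKM in sgPLOD2 libraries and 0.280, 0.670 and 0.293 FPKM in sgControl libraries. Its groups were as far apart (log2 fold change 5.31 ± 0.14, SE, limma adjusted p = 1.28e-06), but the values of both genes are not separate measurements. Their coding sequences are identical, and every 100-base stretch of the SPANXA1 and SPANXA2 transcripts occurs in another gene, so reads of that length cannot be assigned to either copy.

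SPANXB1 (chrX:141002594-141003706) has its own sequence, with 1.1% of its 100-base stretches found in another gene. It had 16.4, 12.4 and 13.2 FPKM in sgPLOD2 libraries and 1.25, 0.765 and 1.14 FPKM in sgControl libraries. It was the classical gene with the highest level in sgControl libraries, and the ratio of means was 13.3. Its log2 fold change was 2.87 ± 0.14 (SE, limma adjusted p = 1.06e-05). SPANXD (chrX:141697411-141698739) had 7.10, 6.17 and 6.29 FPKM in sgPLOD2 libraries and 0.0313, 0.247 and 0.0665 FPKM in sgControl libraries. Its groups did not overlap (log2 fold change 2.76 ± 0.11, SE, limma adjusted p = 4.88e-06), and 38.9% of its stretches are shared.

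SPANXC (chrX:141241463-141242517) had 1.06, 0.963 and 1.08 FPKM in sgPLOD2 libraries and 0.113, 0 and 0.187 FPKM in sgControl libraries. Its level in sgPLOD2 averaged 1.04 ± 0.06 FPKM (SD, n = 3), against 55.1 ± 7.45 FPKM for SPANXA1, whose promoter differs from the SPANXC promoter at the 5 printed positions. Of the SPANXC stretches, 55.9% are shared with other genes, so its level may hold reads of its copies. Summed over the copies SPANXA1, SPANXA2, SPANXC and SPANXD, FPKM was 136, 112 and 106 in sgPLOD2 libraries and 0.786, 1.39 and 0.773 in sgControl libraries. The sum pools reads placed on any of the 4 copies, and it was higher in every sgPLOD2 library (log2 fold change 5.91 ± 0.15, SE, limma adjusted p = 1.17e-06). SPANXN1, of the SPANX-N subfamily, had 0.0726, 0.103 and 0.0253 FPKM in sgPLOD2 libraries and 0.161, 0.111 and 0.0948 FPKM in sgControl libraries. The SPANXN1 groups overlapped.

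**Figure D1:**
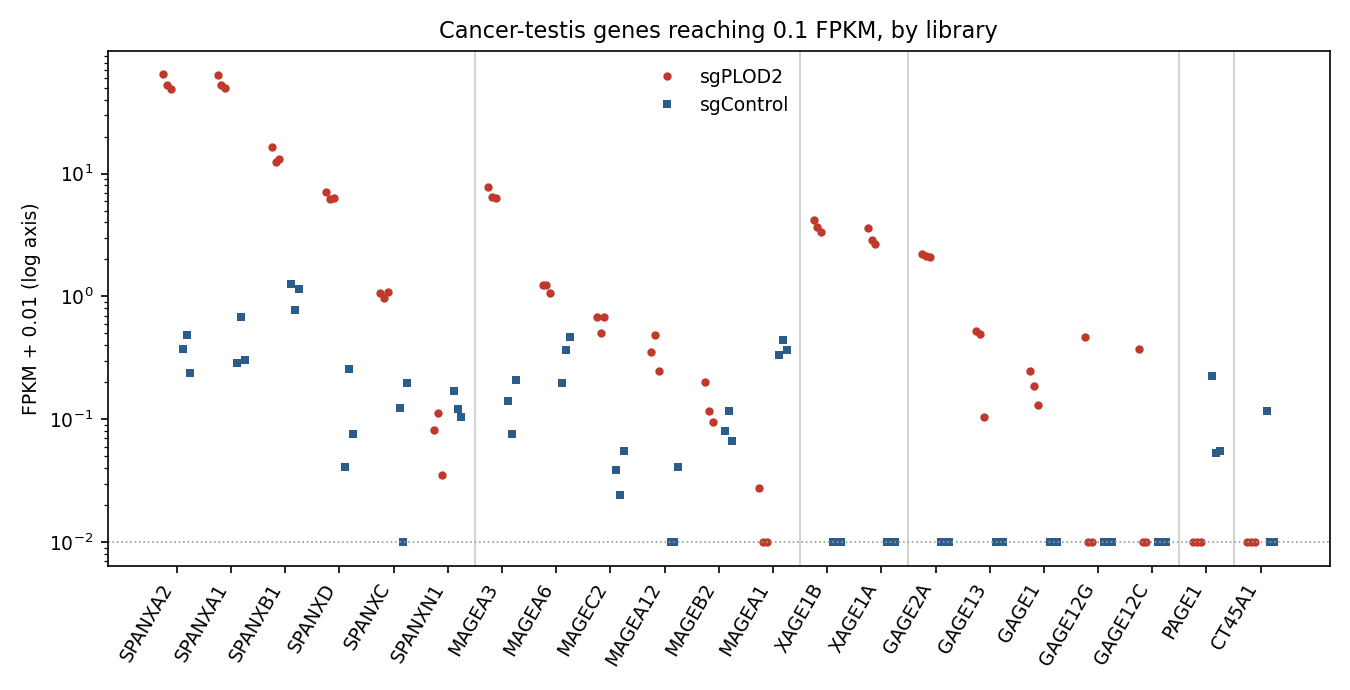
FPKM + 0.01 on a log axis in each library, sgPLOD2 circles left of sgControl squares, for the 21 classical members that reached 0.1 FPKM, with values of 0 on the dotted line at 0.01. SPANXA1 and SPANXA2 are highest, up to 64.4 FPKM in sgPLOD2 libraries, and the XAGE and GAGE genes lie at 0 in every sgControl library.

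Of the type I MAGE genes, MAGEA3 had the highest level. MAGEA3 and MAGEA6 direct the ubiquitin ligase TRIM28 and are widely studied as tumour antigens. MAGEA3 (chrX:152698767-152702347) had 7.71, 6.38 and 6.34 FPKM in sgPLOD2 libraries and 0.132, 0.0659 and 0.200 FPKM in sgControl libraries. The ratio of means was 51.3, and no libraries overlapped (log2 fold change 2.78 ± 0.10, SE, limma adjusted p = 4.50e-06). MAGEA6 (chrX:152766136-152769747) had 1.24, 1.23 and 1.06 FPKM in sgPLOD2 libraries and 0.188, 0.356 and 0.462 FPKM in sgControl libraries. It did not overlap either, with a ratio of means of 3.51, but its mean over all libraries was under the minimum for the fit. With every gene above 0 tested, its limma adjusted p was 0.00577.

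MAGEA3 stood above MAGEA6 in every sgPLOD2 library and under it in every sgControl library, although their promoters are identical. The coding sequences are 98.1% identical, and 34.9% of MAGEA3 stretches and 33.0% of MAGEA6 stretches are shared, so part of the reads could be placed on either gene. Summed, they had 8.95, 7.61 and 7.40 FPKM in sgPLOD2 libraries and 0.320, 0.422 and 0.662 FPKM in sgControl libraries. The sum was higher in sgPLOD2 without overlap (log2 fold change 2.62 ± 0.12, SE, limma adjusted p = 8.34e-06).

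MAGEA12 lies between MAGEA3 and MAGEA6. It had 0.346, 0.474 and 0.237 FPKM in sgPLOD2 libraries and 0, 0 and 0.0311 FPKM in sgControl libraries. It was higher without overlap (limma adjusted p = 0.00764 with every gene above 0 tested), and 3.5% of its stretches are shared. MAGEC2, which also binds TRIM28, had 0.666, 0.497 and 0.668 FPKM in sgPLOD2 libraries and 0.0286, 0.0145 and 0.0454 FPKM in sgControl libraries. It shares no stretch with another gene, and its ratio of means was 20.7 (limma adjusted p = 0.00115 with every gene above 0 tested).

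MAGEA1, the founding gene of the family, went the other way. It had 0.0179, 0 and 0 FPKM in sgPLOD2 libraries and 0.323, 0.436 and 0.360 FPKM in sgControl libraries. The groups did not overlap, it shares no stretch with another gene, and it was called lower with every gene above 0 tested (limma adjusted p = 0.000956). MAGEB2 had 0.190, 0.107 and 0.0844 FPKM in sgPLOD2 libraries and 0.0701, 0.107 and 0.0564 FPKM in sgControl libraries, and its groups overlapped. The type I genes thus did not share a direction: 4 of the 6 that reached 0.1 FPKM were higher without overlap, 1 was lower and 1 overlapped. Among the 19152 genes of the table that reached this level, 30.0% were higher without overlap and 22.1% lower.

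The type I genes were also set against their neighbours. Within 1 Mb of MAGEA3, MAGEA6 and MAGEA12, 12 other genes were tested and 11 of them were called lower, with a median log2 fold change of -0.81 (limma). ZNF185, which encodes an actin-associated LIM protein, had a log2 fold change of -2.48 and DUSP9, which encodes a MAP kinase phosphatase, had -1.56. NSDHL, an enzyme of cholesterol synthesis, had 16.5, 14.0 and 15.9 FPKM in sgPLOD2 libraries and 28.2, 29.2 and 30.8 FPKM in sgControl libraries. HAUS7 was the gene not called, at -0.16. MAGEA3, MAGEA6 and MAGEA12 were thus higher in a region where 11 of the 12 tested neighbours were lower. Around MAGEA1, 16 of 20 tested genes were called lower and L1CAM was called higher, and this window shares genes with the other.

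**Figure D2:**
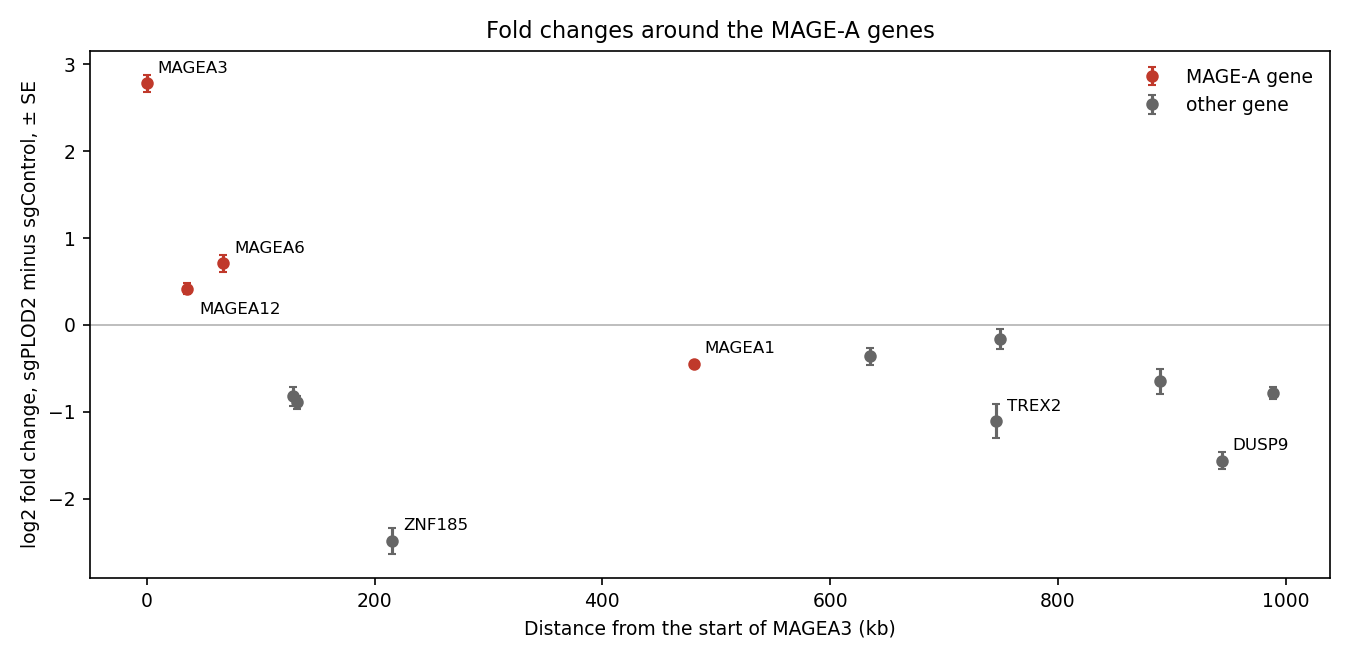
Log2 fold change (sgPLOD2 minus sgControl, on log2(FPKM + 1), bars are SE, with every gene above 0 tested) of MAGE-A genes and of tested neighbours against distance from the start of MAGEA3 in kb. MAGEA3, MAGEA12 and MAGEA6 lie above 0, whereas MAGEA1 and the other genes, with ZNF185 lowest at -2.48, lie under it.

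Near the SPANX genes the tested neighbours were few, and near the XAGE1, MAGED4 and GAGE genes more were called lower than higher. The SPANX genes had 1 tested neighbour within 1 Mb, LDOC1, which was not called. Around XAGE1A, XAGE1B, MAGED4 and MAGED4B, 2 of 7 tested genes were called higher and 4 lower. Around the GAGE genes, 3 of 26 were higher and 13 lower, with a median of -0.29. Over the 334 tested genes of chromosome X that are not members, 27.8% were called higher and 27.2% lower.

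The XAGE1 genes were listed at 0 in all sgControl libraries. XAGE1B (chrX:52512077-52520803) had 4.15, 3.70 and 3.33 FPKM in sgPLOD2 libraries and was listed at 0 in each sgControl library (limma adjusted p = 5.33e-06). XAGE1A (chrX:52495808-52500812) had 3.57, 2.85 and 2.66 FPKM in sgPLOD2 libraries and 0 in each sgControl library (limma adjusted p = 1.28e-05). No fold is given, since one group was at 0. Every XAGE1A stretch and 76.3% of XAGE1B stretches occur in the other gene, and together the pair had 7.72, 6.55 and 5.98 FPKM in sgPLOD2 libraries and 0 in each sgControl library.

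All 5 GAGE genes with a value above 0 were likewise listed at 0 in every sgControl library. GAGE2A (chrX:49589529-49596827) had 2.20, 2.13 and 2.07 FPKM in sgPLOD2 libraries, which barely differed among themselves, and 0 in each sgControl library (limma adjusted p = 6.22e-06). GAGE13 had 0.510, 0.481 and 0.0951 FPKM in sgPLOD2 libraries and was not called with every gene above 0 tested (limma adjusted p = 0.0602). With a minimum mean of 0.1 FPKM its adjusted p was 0.0239. GAGE1, with 11.3% of its stretches shared, had 0.237, 0.175 and 0.121 FPKM in sgPLOD2 libraries and 0 in sgControl libraries (limma adjusted p = 0.00723 with every gene above 0 tested). GAGE1 and GAGE2A have identical promoters at a listed start, and in sgPLOD2 they averaged 0.178 ± 0.058 and 2.13 ± 0.07 FPKM (SD, n = 3 each). FPKM is scaled by gene length, and their longest transcripts have 3129 and 528 bases. The authors' mean normalized counts were closer to each other, at 38.1 for GAGE1 and 74.5 for GAGE2A. Of GAGE2A stretches 53.4% are shared with other genes, and of GAGE13 stretches 80.5%. GAGE12G and GAGE12C were above 0 in sgPLOD2 replicate 1 alone, at 0.460 and 0.361 FPKM, and every stretch of either occurs in another gene. The sum over the 10 closest GAGE copies was 3.53, 2.61 and 2.16 FPKM in sgPLOD2 libraries and 0 in each sgControl library.

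Genes listed at 0 in every sgControl library were also counted over the whole table. Of the 10595 genes that averaged at least 1 FPKM in sgPLOD2, 15 (0.142%) were listed at 0 in all sgControl libraries. They included 5 of the 18 members with that average, namely XAGE1A, XAGE1B, GAGE2A, MAGED4 and MAGED4B. Because 4 of the 5 form 2 pairs of copies, they stand for fewer separate measurements. Genes entered this count by their level in sgPLOD2 alone, so it describes the members and tests nothing.

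PAGE1 and CT45A1 were detected in sgControl only. PAGE1 was listed at 0 in each sgPLOD2 library and had 0.215, 0.0433 and 0.0453 FPKM in sgControl libraries. It was not called with every gene above 0 tested (limma adjusted p = 0.188), but it was lower at 0.05 in the authors' deposited comparison (authors' adjusted p = 0.0139). CT45A1 was listed at 0 in all but sgControl replicate 1, where it had 0.108 FPKM. SSX7 was the only SSX gene above 0, at 0.0215 FPKM in sgControl replicate 1.

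**Figure D3:**
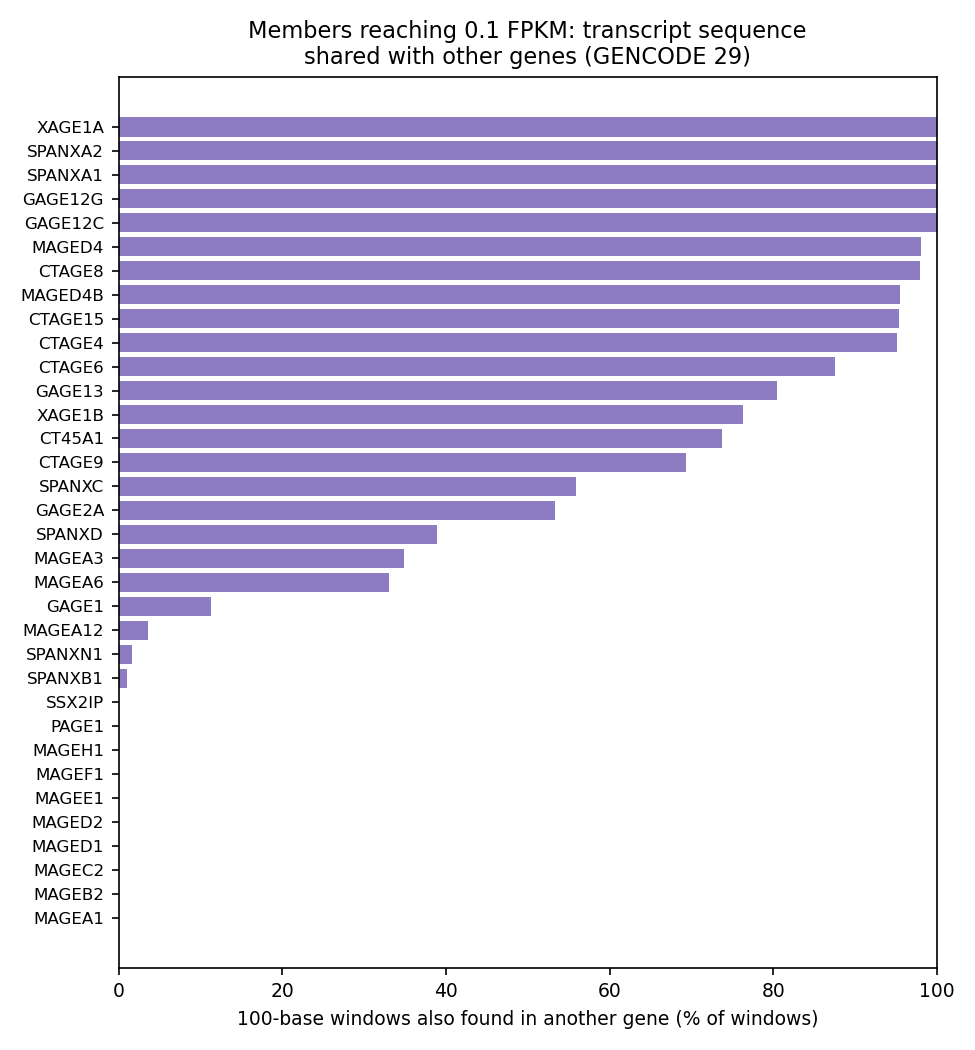
Share of each member's 100-base transcript stretches that occur in another gene, as bars in percent, for the 34 members that reached 0.1 FPKM. SPANXA1, SPANXA2, XAGE1A, GAGE12C and GAGE12G stand at 100%, whereas MAGEC2, MAGEA1, MAGED1 and MAGED2 are among those that share no stretch.

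Over all 96 members, 42 had at least 50% of their stretches in another gene, and 35 shared none. At 95% coding identity, 44 members fell into 12 groups of copies. Values of single copies in these groups depend on how reads with several matches were placed, which is not given in the sources used here. Of the 8 classical members that reached 0.1 FPKM with 11.3% of stretches or fewer shared, SPANXB1, MAGEA12, MAGEC2 and GAGE1 were higher in sgPLOD2 without overlap. MAGEA1 and PAGE1 were lower without overlap, though PAGE1 was not called with every gene above 0 tested, and MAGEB2 and SPANXN1 overlapped. These counts stand beside 30.0% higher and 22.1% lower without overlap among the 19152 genes that reached 0.1 FPKM. With 8 members they are a description only.

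The type II MAGE genes had the highest sgControl levels of all members, and the 4 most abundant were lower in sgPLOD2. MAGED2, which promotes salt transport in the developing kidney, had 61.8, 54.5 and 63.1 FPKM in sgPLOD2 libraries and 99.4, 95.2 and 98.5 FPKM in sgControl libraries. The groups did not overlap (log2 fold change -0.70 ± 0.08, SE, limma adjusted p = 0.000661). MAGED1, an adaptor of the neurotrophin receptor p75NTR, had 46.4, 43.3 and 48.7 FPKM in sgPLOD2 libraries and 63.6, 69.1 and 68.5 FPKM in sgControl libraries. It was also lower in every sgPLOD2 library (log2 fold change -0.53 ± 0.08, SE, limma adjusted p = 0.00180). MAGEH1 had 6.93, 6.79 and 5.56 FPKM in sgPLOD2 libraries and 12.3, 17.5 and 17.5 FPKM in sgControl libraries, without overlap (log2 fold change -1.16 ± 0.15, SE, limma adjusted p = 0.000940).

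MAGEF1, a chromosome 3 gene whose protein acts with the ligase NSMCE1, had 9.76, 9.56 and 8.62 FPKM in sgPLOD2 libraries and 11.2, 14.2 and 16.4 FPKM in sgControl libraries. Its groups did not overlap (log2 fold change -0.52 ± 0.14, SE, limma adjusted p = 0.0175). The call was lost without sgPLOD2 replicate 3 (adjusted p = 0.0622) and after rescaling to equal totals (adjusted p = 0.0660), and the fold change was -0.85 once each chromosome's median was removed. MAGED2, MAGED1, MAGEH1 and MAGEF1 share no stretch with another gene.

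MAGEE1 and the MAGED4 pair were higher. MAGEE1, which binds dystrobrevin, had 1.81, 1.77 and 2.00 FPKM in sgPLOD2 libraries and 0.541, 0.987 and 0.885 FPKM in sgControl libraries, without overlap (log2 fold change 0.67 ± 0.11, SE, limma adjusted p = 0.00260). MAGED4B (chrX:52061827-52069248) had 0.804, 1.20 and 1.09 FPKM in sgPLOD2 libraries and MAGED4 (chrX:52184823-52192268) had 0.797, 1.14 and 1.11 FPKM. Both were listed at 0 in each sgControl library. Of their stretches, 95.6% and 98.1% are shared, and their sum was 1.60, 2.35 and 2.21 FPKM in sgPLOD2 libraries and 0 in each sgControl library (limma adjusted p = 5.63e-05 for the sum).

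**Figure D4:**
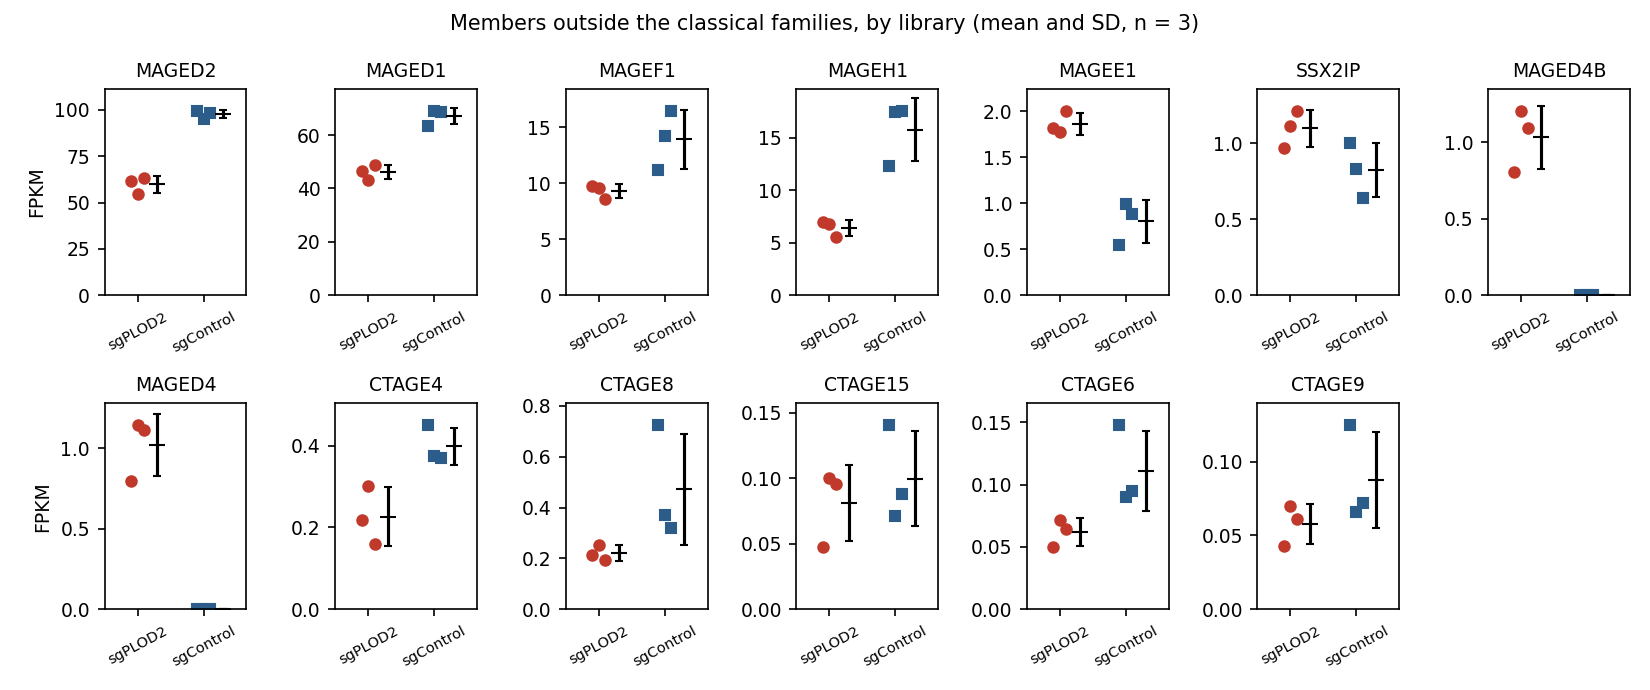
FPKM on linear axes that start at 0, in each library, sgPLOD2 circles left of sgControl squares, for the 13 members outside the classical families that reached 0.1 FPKM, with group mean and SD (n = 3) as bars. MAGED2, MAGED1, MAGEH1 and MAGEF1 are lower in every sgPLOD2 library, and MAGEE1, MAGED4 and MAGED4B are higher.

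SSX2IP had 0.969, 1.11 and 1.21 FPKM in sgPLOD2 libraries and 1.00, 0.830 and 0.640 FPKM in sgControl libraries, with overlapping groups. CTAGE8 had 0.215, 0.254 and 0.192 FPKM in sgPLOD2 libraries and 0.723, 0.369 and 0.321 FPKM in sgControl libraries. CTAGE4 had 0.218, 0.301 and 0.158 FPKM in sgPLOD2 libraries and 0.449, 0.375 and 0.369 FPKM in sgControl libraries. Both CTAGE genes were lower without overlap, but CTAGE8 was not called with every gene above 0 tested (limma adjusted p = 0.155) or with a minimum mean of 0.1 FPKM (0.0785). CTAGE4 was not called in the first of these fits (limma adjusted p = 0.0637) and was called in the second (0.0427). CTAGE6, CTAGE9 and CTAGE15 stayed at or under 0.148 FPKM, CTAGE6 being lower without overlap, and these 5 CTAGE genes are near-identical copies.

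**Figure D5:**
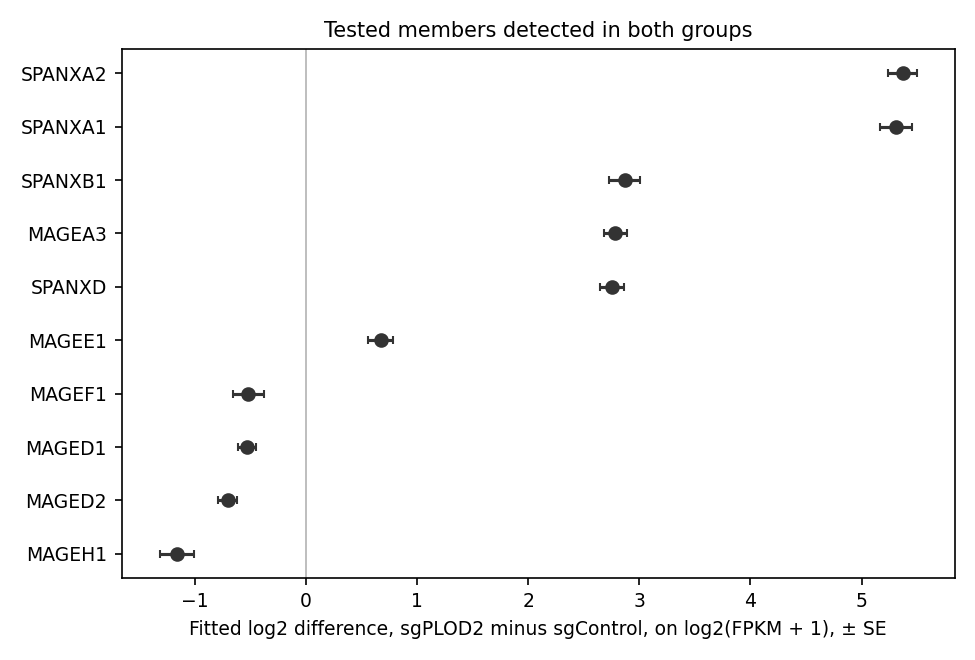
Log2 fold change (sgPLOD2 minus sgControl, on log2(FPKM + 1), bars are SE) of the tested members that were above 0 in both groups. SPANXA2 is highest at 5.37 and MAGEH1 lowest at -1.16, and the members under 0 are all type II MAGE genes.

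Other genes of the same biology were counted from lists of textbook genes. Of 41 cancer-testis genes outside these families, 10 were tested, 4 were called higher and the other 6 were not called, with a median log2 fold change of 0.09, against 0.06 over all tested genes (limma). The counts of this and the next lists stand beside 29.5% called higher and 23.5% lower over all tested genes, and none of them is read as particular to its list. ATAD2, a bromodomain protein, averaged 16.7 ± 1.96 FPKM in sgPLOD2 and 5.39 ± 1.67 FPKM in sgControl, and SPAG9, TTK and OIP5 were the others of the 10 called (SD, n = 3 each). With every gene above 0 tested, 8 of 24 genes of this list were called higher and 0 lower, against 14.2% and 10.1% of 28706 genes. CABYR, LDHC and CSAG1, all under 1 FPKM, were among the 8 (limma adjusted p = 0.00121, 0.0153 and 0.0247). ZNF165 was not called (limma adjusted p = 0.747). PRAME, a ligase subunit and antigen encoded on chromosome 22, averaged 4.56 ± 0.12 FPKM in sgPLOD2 and 4.65 ± 0.48 FPKM in sgControl and was not called (adjusted p = 0.884). Of 40 germline genes, 34 stayed under 0.1 FPKM in all libraries, and of 2 tested, TSSK6 was called higher (limma adjusted p = 0.0388) and TDRKH was not called. With every gene above 0 tested, TSSK6 was not called, and the 1 of 17 germline genes that was called, the meiotic recombinase DMC1, was lower (limma adjusted p = 0.0159). Of 9 male germ cell markers, 7 were listed at 0 throughout, and the list summed to 0.00849 to 0.0301 FPKM in sgPLOD2 libraries and 0.00824 to 0.0207 FPKM in sgControl libraries.

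Of 17 tested genes of the DNA methylation machinery, 4 were called higher and 1 lower, against 29.5% and 23.5% of all tested genes. Their median log2 fold change was 0.22 (limma). With every gene above 0 tested, 6 of 21 were called higher and 1 lower, against 14.2% and 10.1% of 28706 genes. ZBTB38, which binds methylated DNA, averaged 2.61 ± 0.48 FPKM in sgPLOD2 and 0.323 ± 0.148 FPKM in sgControl (SD, n = 3 each). TET3, which oxidises methylcytosine, averaged 3.17 ± 0.49 FPKM in sgPLOD2 and 1.26 ± 0.49 FPKM in sgControl (SD, n = 3 each). UHRF2 and HELLS were the other genes of the 17 called higher, and MBD2, a reader of methylated DNA, was called lower. TET1, at most 0.124 FPKM, TET2 and DNMT3A were under the minimum. With every gene above 0 tested, TET1 and TET2 were called higher (limma adjusted p = 0.00320 and 0.00681). DNMT3A was not called (limma adjusted p = 0.0683). DNMT1, the maintenance methyltransferase, averaged 19.5 ± 0.87 FPKM in sgPLOD2 and 16.9 ± 1.04 FPKM in sgControl and was not called (adjusted p = 0.0814). DNA methylation itself was not measured.

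Of 36 tested genes of repressive chromatin, 13 were called higher and 2 lower (limma), with a median log2 fold change of 0.22. The 4 with the smallest adjusted p were SUZ12, a subunit of Polycomb complex PRC2, the deacetylase HDAC2, ATF7IP, a partner of SETDB1, and TASOR of the HUSH complex, all higher. SUZ12 averaged 3.28 ± 0.37 FPKM in sgPLOD2 and 1.22 ± 0.28 FPKM in sgControl (SD, n = 3 each). Of 23 tested partners of MAGE proteins, 9 were higher and 5 lower, with a median of 0.24. NDN, the MAGE-family gene necdin, averaged 1.53 ± 0.21 FPKM in sgPLOD2 and 14.0 ± 1.25 FPKM in sgControl (log2 fold change -2.56 ± 0.11, SE, limma adjusted p = 5.66e-06). The ligase TRIM37 was higher, at 6.06 ± 0.63 FPKM in sgPLOD2 and 2.49 ± 0.12 FPKM in sgControl, and TRIM27 was lower, at 5.14 ± 0.24 FPKM in sgPLOD2 and 8.55 ± 0.55 FPKM in sgControl (SD, n = 3 each). DCAF12, a receptor of a cullin ligase, was higher, at 16.5 ± 0.85 FPKM in sgPLOD2 and 11.1 ± 1.61 FPKM in sgControl (SD, n = 3 each). TRIM28, the partner of MAGEA3, MAGEA6 and MAGEC2, was not called (adjusted p = 0.671).

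Markers of other cell types were low. Summed FPKM of 8 leukocyte markers was 0.240 to 0.599 in sgPLOD2 libraries and 0.138 to 0.167 in sgControl libraries, and 5 endothelial markers summed to at most 0.131. The 6 melanocyte markers summed to 1.50 to 2.01 in sgPLOD2 libraries and 1.23 to 1.55 in sgControl libraries, with TYR and SOX10 at 0. The 9 fibroblast markers summed to 3.38 to 3.69 in sgPLOD2 libraries and 0.710 to 0.987 in sgControl libraries, with DCN and FAP at 0. COL1A1 had 2.82 to 3.18 FPKM in sgPLOD2 libraries and 0.432 to 0.565 in sgControl libraries. THY1, PDGFRB and COL1A2, at most 0.230 FPKM, were also higher in every sgPLOD2 library than in any sgControl library. LUM had 0.152 to 0.253 FPKM in sgPLOD2 libraries and 0.246 to 0.499 in sgControl libraries, and the groups overlapped. PDGFRA and COL3A1, at most 0.00559 FPKM, overlapped too. The 12 renal carcinoma markers summed to 1217 to 1308 in sgPLOD2 libraries and 1481 to 1894 in sgControl libraries. Whether a difference in the cells of the groups had a part in the levels of the cancer-testis genes was not tested.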

How the data were processed

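RNA sequencing of 6 libraries of 786-O cells was used, 3 labelled sgPLOD2 and 3 labelled sgControl. CASAVA, HISAT2 2.1.0, StringTie 1.3.4 and GRCh38 are named, per the submitters' processing notes. How reads with several matches were handled, and whether strand was used, is not given in the sources used here. The authors deposited 1 FPKM value per gene and library, per the file headers, with no scaling between libraries recorded. The same deposited table gives the authors' log2 fold change and p-values, and as score columns a mean normalized count, a standard error and a test statistic. No column of other samples was left unused (0 columns).

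Genes that averaged at least 1 FPKM over the 6 libraries were compared on log2(FPKM + 1) in R 4.3.3 by limma 3.58.1 (eBayes with trend, 2-sided, Benjamini-Hochberg threshold 0.05). The authors' log2 fold changes were not used in this fit. Genes with an FPKM of 0 are written as listed at 0, because the estimate itself may have failed. An exact permutation test of 3 against 3 cannot go under p = 0.1, which PLOD2 reached.

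Transcripts of GENCODE 29 (GRCh38), which held all 96 members, were split into every 100-base stretch, and a stretch found in another gene's transcripts on the same strand counted as shared. Coding identity of at least 95% defined groups of copies. Positions of genes are on GRCh38, and promoters came from RefSeq (GRCh38.p14).

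Named were all members averaging at least 1 FPKM, those reaching 0.1 FPKM in a library, and the 4 smallest adjusted p of each list. Other genes were named after their values had been seen. Members and lists were chosen with earlier results of these data known. The alternatives were other pseudocounts, minimum levels, scalings, variance models, copies summed, chromosome medians removed, the replicate number as a block, and each library left out. In simulated data for this comparison, with 10469 genes, the steps recovered 46.3% of changes of 0.5, 88.1% of changes of 1 and 97.0% of changes of 2 on the log2 scale, and 7.23% of calls were false.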

Additional observations from a re-analysis of the deposited data

How the results depend on the processing

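Of 234 values of the 13 tested members under alternatives, 232 kept their direction and call, none reversed, and 2 lost the call, both of MAGEF1. Members called higher, 9 as reported, numbered 16 with no minimum level, 16 at a minimum mean of 0.1 FPKM and 3 at a minimum of 5 FPKM, since the minimum decides which members are tested. Genes called higher over the table numbered 1361 at a minimum of 5 FPKM, and X-linked genes called higher numbered 154 at 0.1 FPKM and 43 at 5 FPKM. With each library left out in turn, members called higher ranged from 8 to 9 and members called lower from 3 to 4. Genes called higher ranged from 2239 to 3306 and lower from 1940 to 2547, and X-linked genes called ranged from 71 to 114 higher and from 73 to 97 lower. GAGE2A averaged under 1 FPKM and was not tested without any 1 sgPLOD2 library. The log2 fold change of PLOD2 ranged from -1.94 to -1.47 and was called throughout. Rescaling to equal totals moved the median log2 fold change of all genes to 0.17, against 0.06 as deposited. The pseudocount set the size for weak genes: at 0.1 the log2 fold change was 4.93 for MAGEA3, 5.07 for SPANXD and 1.15 for MAGEE1. Libraries with the same number did not deviate together (correlations 0.0135, 0.135 and -0.0491), so the numbers were not taken as pairs. With the replicate block, 9 members were called higher and 4 lower, of 2984 genes higher and 2335 lower. Depth is unknown, so a member listed at 0 may be expressed under the detection limit, and single copies of near-identical genes cannot be resolved.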

Other observations

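Another 25 genes of the table carry the same prefixes but are pseudogenes or non-coding. SPANXA2-OT1, a non-coding RNA named for the SPANXA2 locus, had 0.0634, 0 and 0.0446 FPKM in sgPLOD2 libraries and 0.0170, 0 and 0.00855 FPKM in sgControl libraries, and its groups overlapped.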
